A study of Mus musculus with 4 samples.

Results

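The 10 genes described here encode the 5 NF-kB transcription factors of the mouse (Nfkb1, Nfkb2, Rel, Rela and Relb), 4 members of the IkB family that bind them (Nfkbia, Nfkbiz, Nfkbid and Bcl3) and the feedback inhibitor A20 (Tnfaip3). They were chosen by name, and each was studied as its annotated gene body plus 50 kb on each side. These windows covered 1249.79 kb in all and held 617 of the 338461 open regions listed for the 4 replicates, or 174 of 101015 regions after overlapping regions of the replicates were merged. The lists come from ATAC-seq, an assay in which Tn5 transposase cuts and tags accessible DNA, of T-helper 17 (Th17) cells, a class of CD4 T cell known for making the cytokine interleukin 17; the labels call them primary cells of the mouse. The study holds 1 group of 4 biological replicates of strain C57BL/6NJ, with no genotype change or added agent named in the labels. All 4 carry the same donor identifier, the age is given as unknown and the sex as not collected. The labels point to a differentiation protocol for CD4+ T cells, whose text was not used here. Nothing in the labels says how far the replicates are separate cultures or animals, so the spread between them may be technical. With 1 group and 1 cell type there was no contrast to test, and the values below describe these cells without p-values.

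NF-kB proteins are dimers of Rel-domain subunits. In resting cells IkB proteins hold them inactive in the cytoplasm; in T cells, signals from the antigen receptor, CD28 and TNF-family receptors activate the IkB kinase, IkB is degraded and the dimers enter the nucleus. Nfkb1 and Nfkb2 encode the precursors p105 and p100, which are processed to p50 and p52, while Rela, Rel and Relb encode the subunits with activation domains. Several genes of the pathway, Nfkbia and Tnfaip3 among them, are textbook targets of NF-kB, which makes the pathway a feedback circuit. The binding site, called a kappa B site, is a near-palindrome with G bases at the start and C bases at the end.

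Since the genes are both parts of the pathway and candidate targets, the sequence at their start sites is shown first. Both strands from 250 bp before to 50 bp after each annotated transcription start site (TSS) were searched for the 10-letter NF-kB consensus, and 9 of the 10 genes held a match, against 6.87% of all 21851 protein-coding genes. Rela was the exception. The 15 sites found are printed here, each as 30 bases on the strand of the gene in GRCm38 (mm10). Capitals mark the match, and 11 capitals mark overlapping matches.
Nfkb1 (chr3:135691497-135691526, minus strand): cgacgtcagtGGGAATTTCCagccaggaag
Nfkb2 first site (chr19:46304688-46304717, plus strand): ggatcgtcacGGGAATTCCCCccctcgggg
Nfkb2 second site (chr19:46304716-46304745, plus strand): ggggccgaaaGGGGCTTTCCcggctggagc
Nfkb2 next site (chr19:46305449-46305478, plus strand): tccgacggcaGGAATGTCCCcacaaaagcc
Nfkb2 last site (chr19:46305695-46305724, plus strand): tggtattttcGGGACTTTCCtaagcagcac
Rel (chr11:23771041-23771070, minus strand): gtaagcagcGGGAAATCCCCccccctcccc
Relb near site (chr7:19629443-19629472, minus strand): cggcggcgccGGGGAATTCCgccgccccgc
Relb far site (chr7:19629516-19629545, minus strand): gtgagcagcgGGGGTTTTCCcattcccttt
Nfkbia (chr12:55492657-55492686, minus strand): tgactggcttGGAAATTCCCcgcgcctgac
Nfkbiz (chr16:55838850-55838879, minus strand): tttttggcctGGGAATTTCCagcgtgtgga
Nfkbid far site (chr7:30422170-30422199, plus strand): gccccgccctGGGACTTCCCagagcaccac
Nfkbid near site (chr7:30422215-30422244, plus strand): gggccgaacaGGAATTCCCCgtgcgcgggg
Bcl3 (chr7:19822734-19822763, minus strand): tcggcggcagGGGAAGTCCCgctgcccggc
Tnfaip3 near site (chr10:19015403-19015432, minus strand): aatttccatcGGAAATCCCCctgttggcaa
Tnfaip3 far site (chr10:19015516-19015545, minus strand): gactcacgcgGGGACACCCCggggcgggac

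Counted from the 5′ end of the match on the gene's strand to the nearest TSS of that gene, 12 of the 15 sites lay upstream and the distances ran from 9 to 237 bp. The sites nearest to a start were those of Nfkb2 (9 bp downstream of the start of Nfkb2-202), Tnfaip3 (12 bp upstream), Nfkbiz (15 bp upstream of the start of Nfkbiz-202) and Bcl3 (17 bp downstream). The Relb sites lay 24 and 97 bp upstream, the Nfkbia site 29 bp upstream and the Rel site 91 bp upstream, while the Nfkb1 site lay 30 bp downstream, within the transcript. The sites of Nfkb2, Nfkbid and Nfkbiz counted as upstream of their nearest start lie downstream of another annotated start of the same gene. All 15 sites fell inside a merged region found in each of the 4 replicates. A match is a run of letters and not a measured binding event.

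Some of the 10 genes have several annotated starts, which gives them more sequence to match. Among the 5 members with a single TSS (Rel, Rela, Relb, Nfkbia and Bcl3), 4 held a match, against 5.28% of all genes with a single TSS. Counted by start sites, 12 of the members' 19 TSSs held one, against 4.84% of all TSSs. Among genes whose promoter was open in Th17 cells the share was 7.81%. With a 9-letter string, GGANTTTCC, which also matches sites that the consensus does not, the count was 5 of 10 members against 1.83% of all genes. This search around start sites was added after first values of these data had been seen.

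The 200 bases before the single start of Relb show a pair of matches within one promoter, and the same stretches of Nfkbia and Rela show a promoter with a match close to the start and the one member without any. All 3 are on GRCm38 in the direction of transcription, with NF-kB matches in capitals.
Relb (chr7:19629439-19629638, minus strand): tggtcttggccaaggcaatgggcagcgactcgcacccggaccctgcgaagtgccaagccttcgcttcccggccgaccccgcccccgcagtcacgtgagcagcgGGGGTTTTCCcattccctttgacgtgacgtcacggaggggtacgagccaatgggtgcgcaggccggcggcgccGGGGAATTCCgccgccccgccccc
Nfkbia (chr12:55492648-55492847, minus strand): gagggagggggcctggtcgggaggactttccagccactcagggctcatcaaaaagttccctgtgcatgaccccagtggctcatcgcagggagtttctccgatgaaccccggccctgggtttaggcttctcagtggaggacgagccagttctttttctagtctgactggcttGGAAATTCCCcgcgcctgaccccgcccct
Rela (chr19:5637283-5637482, plus strand): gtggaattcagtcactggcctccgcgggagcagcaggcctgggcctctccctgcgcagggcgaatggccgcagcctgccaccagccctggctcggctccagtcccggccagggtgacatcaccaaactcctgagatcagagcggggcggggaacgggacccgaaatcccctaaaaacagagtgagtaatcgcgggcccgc

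Distal regions of the windows are illustrated by 3 that held both an NF-kB match and a match to TGANTCA, the site of AP-1 (dimers of Fos and Jun proteins). They are the strongest region of the Rel window, 15544 bp upstream of Rel, a region 34874 bp downstream of the Nfkbia start, and the region 1620 bp upstream of Bcl3. The Bcl3 one is counted as distal by its summit alone, since the merged region extends over the Bcl3 start. Each is given as the 300 bases around the summit, on the minus strand as its gene lies, with both kinds of match in capitals.
Rel upstream region (chr11:23786364-23786663): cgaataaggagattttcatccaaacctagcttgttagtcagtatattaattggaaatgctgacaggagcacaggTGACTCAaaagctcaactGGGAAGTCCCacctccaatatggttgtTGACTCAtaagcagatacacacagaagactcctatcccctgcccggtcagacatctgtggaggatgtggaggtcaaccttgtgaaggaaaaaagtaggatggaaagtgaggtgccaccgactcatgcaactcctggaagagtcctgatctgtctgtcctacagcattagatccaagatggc
Nfkbia downstream region (chr12:55457623-55457922): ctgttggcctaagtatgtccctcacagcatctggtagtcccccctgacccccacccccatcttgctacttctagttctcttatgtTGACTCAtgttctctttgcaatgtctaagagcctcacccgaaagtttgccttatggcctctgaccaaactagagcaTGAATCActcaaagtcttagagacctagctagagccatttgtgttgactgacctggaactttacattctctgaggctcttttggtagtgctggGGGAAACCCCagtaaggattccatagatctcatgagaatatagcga
Bcl3 upstream region (chr7:19824240-19824539): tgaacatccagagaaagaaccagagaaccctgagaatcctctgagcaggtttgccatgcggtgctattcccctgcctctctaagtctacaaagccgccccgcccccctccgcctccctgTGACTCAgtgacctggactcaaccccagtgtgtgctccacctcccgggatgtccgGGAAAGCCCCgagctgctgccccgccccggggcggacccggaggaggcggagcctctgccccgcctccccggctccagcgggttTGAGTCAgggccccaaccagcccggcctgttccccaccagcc

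The replicates listed between 83904 and 85293 regions each, and depth is unknown because the lists hold no read counts. Signal, the deposited enrichment at a region, is not normalised between replicates, so it is also given as a percentile among all regions of the same replicate, where a higher value means that fewer regions have more signal. As a check of the labelled cell type, 6 of 6 Th17 and T cell markers (Il17a, Il17f, Il23r, Ccr6, Cd3e and Cd4) had an open promoter. The B cell markers (0 of 3), the CD8 T and NK cell markers (0 of 3, with Klrb1c open in 2 replicates) and the hepatocyte gene Alb did not. Of 3 myeloid markers Cd14 did, and its part in the results was not tested. By mean signal percentile Cd14 (62.8, n = 3) stood above Il17a (18.02), Cd4 (21.1), Ccr6 and Il17f (43.3). It stood below Cd3e (67.4) and Il23r. Every marker listed lay in the 2 poorest of 5 equal bins of genes by observed over expected CpG. In those bins 8.69% and 31.1% of genes had an open promoter, so a closed promoter there is common and a weak check. Across the 131 window regions found in all replicates, Spearman's rho of signal between pairs of replicates ran from 0.954 to 0.976; this is across regions, which are not independent.

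Across the 10 windows the replicates held 154, 155, 155 and 153 regions, a mean of 154.25 ± 0.957 (SD, n = 4). Of the 174 merged regions, 131 (75.3%) were shared, meaning found in all 4 replicates, against 68% of merged regions over the genome. Another 7 were found in 3 replicates, 15 in 2 and 21 in 1. Of the shared regions 56 lay outside protein-coding genes, 28 inside the named gene, 21 inside another gene, 15 at promoters of other genes and 11 at promoters of the named genes, a promoter region being one whose summit lies within 1 kb of a TSS. The map by distance from the first start site shows each of them.

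**Figure D1:**
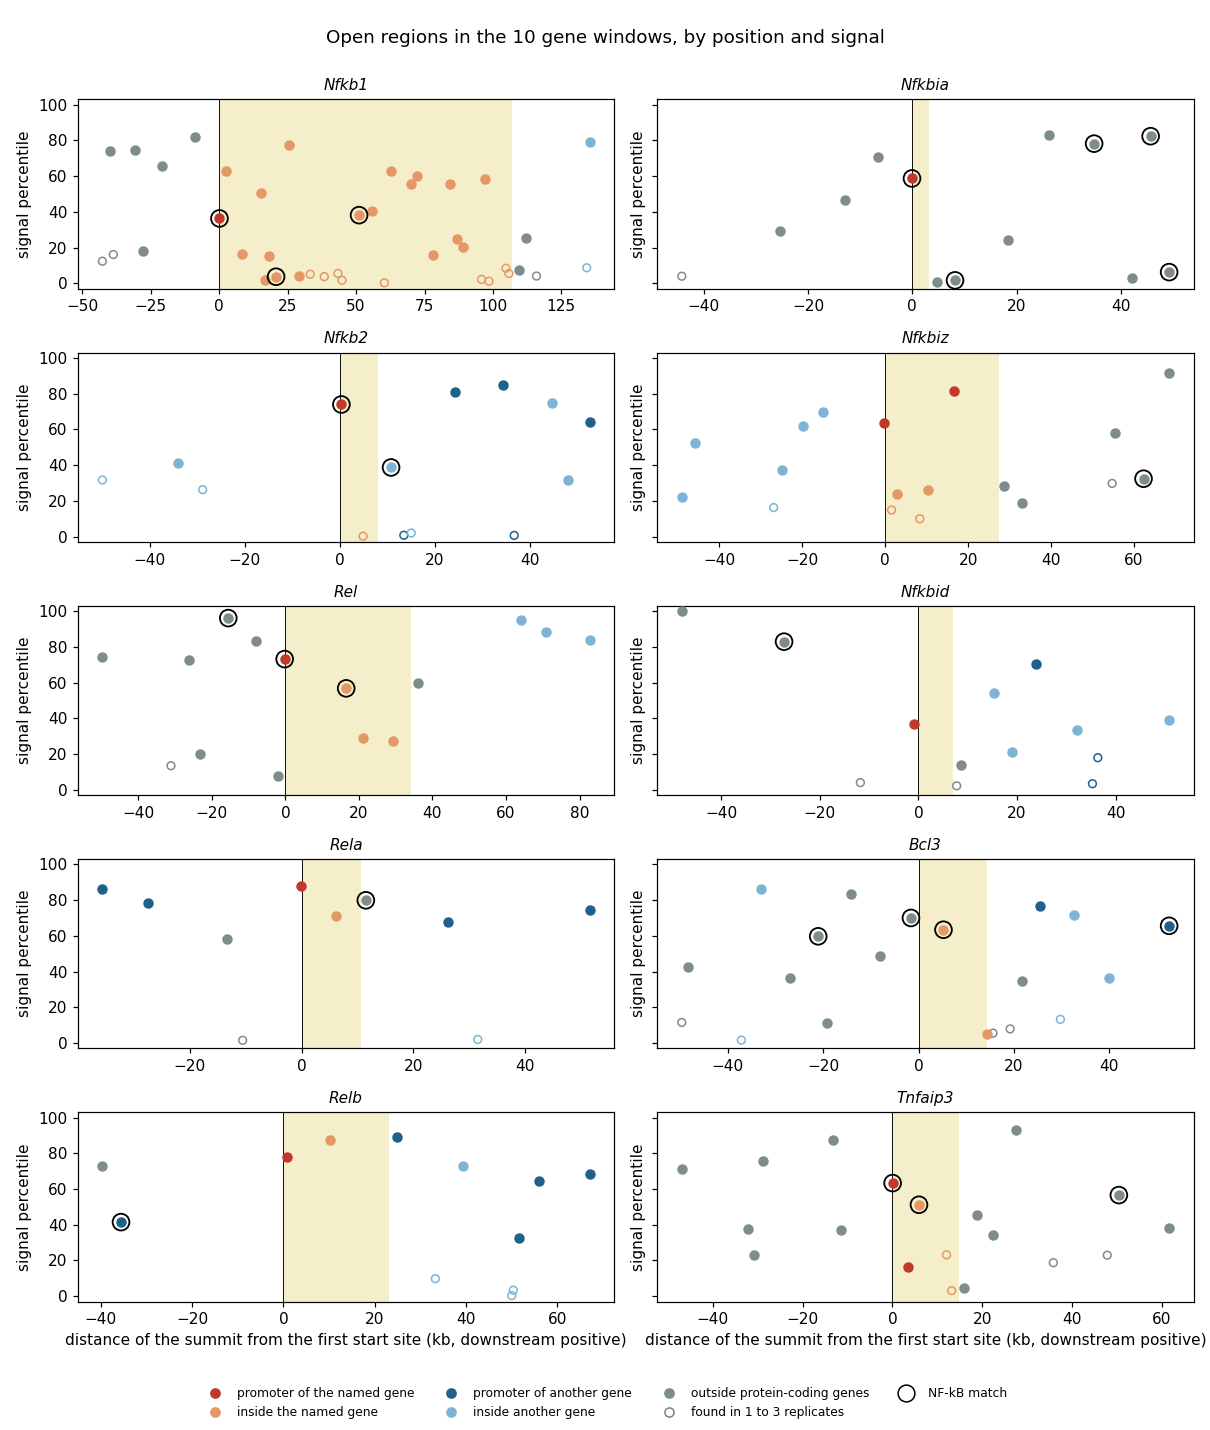
Each panel is one gene window; the x axis is the distance of a region's summit from the gene's first start site in kb, and the y axis is its mean signal percentile over the replicates that have it. Filled points are the 131 shared regions coloured by place, open points the regions found in 1 to 3 replicates, black rings the 24 shared regions with an NF-kB match within the 300 bp around the summit, and the shaded band the gene body.

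Per 100 kb of window the members held from 7.23 (Rela) to 13.1 shared regions, with a median of 10.7, while the median over all protein-coding genes was 5.20 and the quartiles 1.73 and 8.27. All 10 lay above that median, and 7 of 10 lay above the upper quartile, as by definition 25% of genes do. Bcl3, Tnfaip3 and Nfkb1 were close together at the 96.7, 96.7 and 96.6 percentile of genes, and Nfkb2, Relb and Rela at 68.6, 67.8 and 67.2. Neighbouring genes share windows, so these percentiles are not independent. The order depended on the weaker regions. With the strongest 50000 regions of each replicate alone, Rela stood at the 93.2 percentile, above Nfkb1 (86.1) and Tnfaip3 (84.7), while Nfkbia stood at 70.9 and Nfkbid at 55.6, in place of 93.2 and 76.1.

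**Figure D2:**
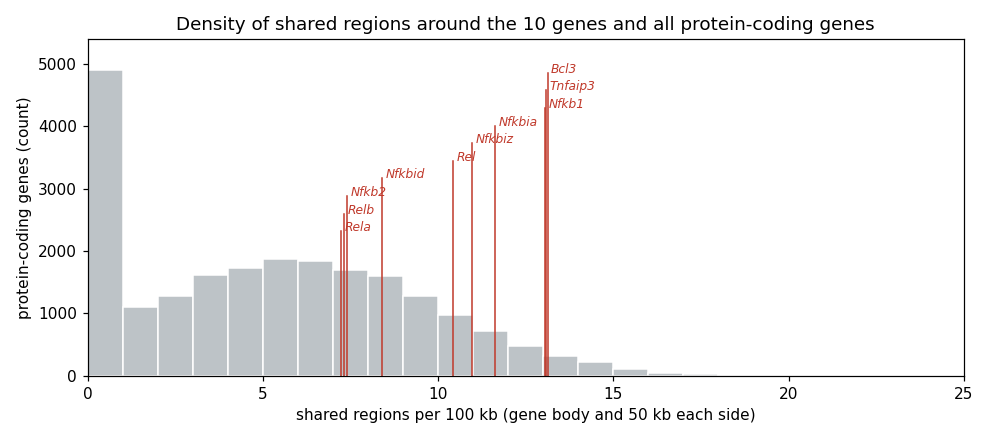
Grey bars give the number of protein-coding genes by shared regions per 100 kb of gene body and 50 kb each side (x axis, in steps of 1). Red lines mark the 10 genes, which sit between 7.23 and 13.1, all above the median of 5.20; line heights only separate the names.

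Every member had an open promoter in each replicate, a region of that replicate's own within 1 kb of a TSS (10 of 10, against 62.2% of all protein-coding genes; 8 of 10 against 53.2% with the strongest 50000 regions of each replicate alone). Promoters rich in CpG were mostly open in these cells: with all genes put in 5 equal bins of observed over expected CpG, 81.3%, 93.6% and 96.3% were open in the 3 richest bins. All 10 members fall in those bins, whose shares give 9.10 open promoters for such a list, so the count of 10 stands close to the level for genes of that CpG content. The 32 other genes of the pathway that were listed (kinases, adaptors, ubiquitin ligases and deubiquitinases, and the remaining IkB genes) likewise had 32 open promoters, where their CpG content gives 28.3; with the strongest 50000 regions alone it was 27.

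The promoters differed from each other in signal by more than the replicates did. Over all genes the median promoter region stood at the 75.3 percentile of signal, and the members ranged from 26.8 to 87.7 with a median of 68.2. The order by mean was Rela, Nfkbiz, Relb, Nfkb2, Rel, Tnfaip3, Nfkbia, Nfkb1, Nfkbid and Bcl3. Replicate values overlapped between each pair of neighbours from Rela to Rel, and between Nfkb1 and Nfkbid; the other neighbours in the order did not overlap, by a narrow margin for Nfkbid (lowest 32.71) and Bcl3 (highest 32.62). Ranked by the deposited -log10 q in place of signal, the order changed, and Nfkb2, Relb and Nfkbia came first. Over all genes the median promoter region stood at the 82.6 percentile of -log10 q. By that measure Nfkb1 (66.8), Nfkbid (73.9) and Bcl3 (62.3) stood below it and the other members above it. In what follows, strength is by signal unless -log10 q is named. The plot of promoter percentiles shows both measures.

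**Figure D3:**
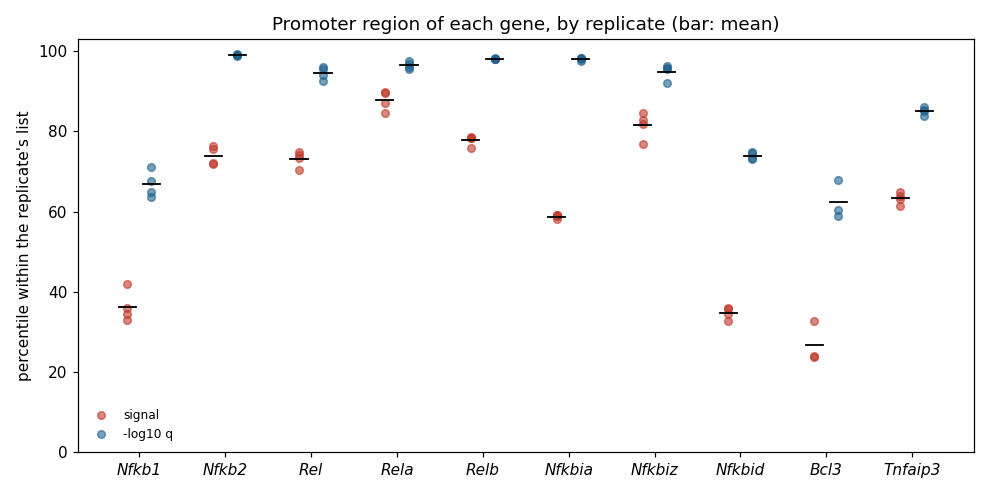
For each gene the points are the replicates (4, or 3 for Bcl3) and the black bar their mean; the y axis is the percentile of the best promoter region within the replicate's own list, red for signal and blue for -log10 q. Rela stands at the top by signal, Nfkb2 by -log10 q, and Bcl3 lowest by both.

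Among the Rel-family factors, Rela, which encodes the p65 subunit, had the promoter with the most signal. Its values were 12.11, 13.79, 12.83 and 12.40 in replicates 1 to 4, at the 87.7 ± 2.5 percentile (SD, n = 4). The gene (chr19:5637483-5648130) lies among 5 other genes, and 4 of the 8 shared regions in its window are promoters of those neighbours: Rnaseh2c, Kat5, Sipa1 and Map3k11. One region lies inside Rela, 6095 bp from its start, at the 70.8 percentile. The region with the window's single NF-kB match by summit lies 11492 bp downstream of the start, just past the gene's end, with signals of 10.72, 11.65, 10.67 and 10.63.

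Relb, the partner of p52 in the non-canonical pathway, had promoter signals of 10.71, 11.01, 10.23 and 9.94, at the 77.8 ± 1.3 percentile, with replicate 4 the lowest. The summit lay 696 bp inside the gene, so the upstream kappa B matches printed above are within the region but 716 and 789 bp from its summit. A region in an intron of Relb, 10252 bp from the start, had more signal than the promoter in every replicate, at 12.06, 12.48, 12.96 and 13.61. By -log10 q the promoter was higher in every replicate, with 449, 450, 491 and 433 against 84.6, 80.1, 117 and 107. Of the other shared regions in the window (chr7:19606217-19629438 and its flanks) 5 are promoters, of Ppp1r37, Gemin7, Zfp296, Clasrp and Clptm1. No shared region had an AP-1 match in the 300 bp around its summit.

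Rel, the c-Rel subunit that is prominent in lymphocytes, had a promoter at 9.70, 9.38, 9.36 and 9.74, the 73.2 ± 2.0 percentile. Its strongest region lies upstream at 15544 bp from the start (chr11:23785965-23786718, outside protein-coding genes), with signals of 15.64, 16.42, 14.20 and 16.06 and a percentile of 96.1 ± 1.5. In all 4 replicates it exceeded the Rel promoter by signal. By -log10 q it was below the promoter in each, with 208, 257, 229 and 248 against 295, 270, 361 and 347. On the other side, 3 regions inside Pus10 reached percentiles of 95.2, 88.3 and 83.7, so the higher signals of this window flank the gene, while the 3 regions inside Rel besides its promoter ranged from 27.4 to 56.8. Of its 15 merged regions 14 were shared, and 9 of those held an AP-1 match in the 300 bp around the summit.

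Nfkb1 (chr3:135584655-135691547) is the longest of the 10 genes, at 106893 bp, and showed a different layout. Its promoter was modest, at 4.81, 4.62, 5.09 and 4.65, the 36.3 ± 3.9 percentile, but the gene body held 18 further shared regions, most of the 28 found inside members. Inside the gene the highest was an intronic region 1796 bp downstream of the internal start, with signals of 10.55, 10.87, 10.31 and 9.80, above the promoter in every replicate. Upstream, the region at 8685 bp before the gene had 11.59, 11.86, 10.82 and 11.17 and was the highest of the window at 81.8 ± 0.34. With 40 merged regions and 27 shared, 67.5% were shared, and 14 of the 27 held an AP-1 match in the 300 bp around the summit.

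Nfkb2, the source of p100 and p52, had the promoter with the highest mean -log10 q percentile of the 10, at 99.0 ± 0.18. Its signals were 10.15, 10.56, 8.94 and 9.22, at the 73.9 ± 2.4 percentile, and the region extends over all 4 annotated starts and all 4 kappa B matches printed above. Replicates 1 and 2 exceeded replicates 3 and 4 without overlap here, by signal and by percentile; they also carry another library tag in the deposited peak names (KS134 against KS136), whose meaning the labels do not explain, and its part in the difference was not tested. The gene is short and crowded by 6 others, and apart from the promoter no shared region lies in its body. The promoters of Fbxl15, Cuedc2 and Mfsd13a account for 3 of the 8 shared regions, of which the one at Cuedc2 was strongest at 85.0.

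**Figure D4:**
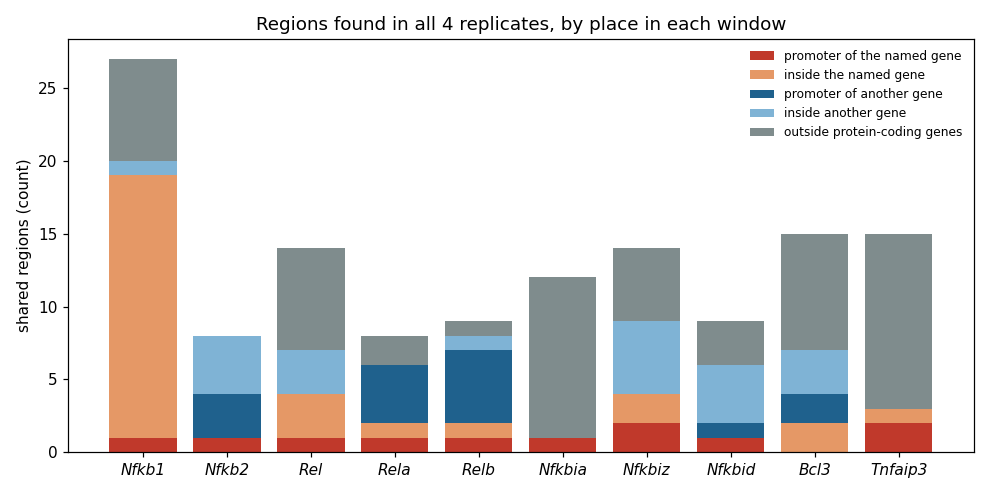
Bars give the number of shared regions in each gene window (y axis, count), stacked by where the summit lies. Nfkb1 has 27 with 18 inside the gene; the Nfkbia and Tnfaip3 windows hold no other protein-coding gene, and most of their 12 and 15 regions lie outside genes.

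Among the inhibitors, Nfkbia, which encodes IkB-alpha, sits in a window with no other protein-coding gene (chr12:55489410-55492647). Its promoter signal was 7.37, 7.55, 6.96 and 7.10, at the 58.7 ± 0.49 percentile, a middle rank held closely by all replicates, while its -log10 q percentile was 97.9. The other 11 shared regions lay outside genes. Of these the regions 26134, 45714 and 34874 bp downstream of the start, and one 6587 bp upstream, had more signal than the promoter, at percentiles of 82.9, 82.4, 78.2 and 70.9. By -log10 q the region at 26134 bp exceeded the promoter (mean 554 against 452). Those at 45714 and 34874 bp did not (274 and 231), nor did the upstream one (92.6 to 113 over the replicates). NF-kB matches were found around 5 of the 12 summits, the most of any member, and they include regions at both ends of the range: the region 8185 bp downstream held one at the 1.68 percentile.

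Tnfaip3 encodes A20, a ubiquitin-editing enzyme that limits signalling to NF-kB, and also has no protein-coding neighbour within its window (chr10:19000910-19015657). Its main promoter had 7.95, 8.46, 7.66 and 7.58, at the 63.3 ± 1.5 percentile, and the region at its internal start was weak, at 16.5. The strongest region lay 24095 bp downstream of the nearer start, with 14.82, 15.20, 14.06 and 13.30 and a percentile of 93.0 ± 1.6. A second one 13116 bp upstream of the gene had 12.86, 13.13, 11.62 and 13.02. Both exceeded the promoter in all 4 replicates, and 12 of the 15 shared regions lay outside genes.

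Nfkbiz encodes IkB-zeta, a nuclear IkB protein known to promote Th17 differentiation. It had open regions at both an outer and an internal promoter. The internal one, at the start of Nfkbiz-204, gave 10.38, 12.49, 11.15 and 11.17 (81.5 ± 3.3 percentile) and the outer one 7.66, 8.54, 7.15 and 8.34 (63.4 ± 3.1), so the internal region was higher in each replicate. The kappa B match printed above belongs to the outer promoter. The strongest region of the window lay 51696 bp downstream of the nearest start, with 13.54, 14.41, 12.90 and 14.55, and 5 regions lay inside the neighbour Nxpe3.

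Nfkbid encodes IkB-NS, a nuclear IkB protein expressed in activated T cells. Its promoter was among the weakest, at 4.80, 4.73, 4.53 and 4.49 (34.7 ± 1.5 percentile). It belongs to a merged region whose best summit by signal lay near the Nfkbid start in replicates 1 and 4 and farther upstream in replicates 2 and 3. The median summit of that region fell between these places, nearer to the start of the neighbour Hcst, and was the summit of no replicate. The same window held the region with the most signal of all 131. It lies 48004 bp upstream (chr7:30373414-30374128), nearest to Lrfn3, with 20.32, 20.95, 19.58 and 18.54 and a percentile of 99.9 ± 0.06. Nearness to a window does not show which gene such a region serves. A region 27256 bp upstream, nearest to Tyrobp, held the window's single NF-kB match by summit, at the 82.9 percentile. No shared region had an AP-1 match in the 300 bp around its summit. For the promoter this stretch lay around the median summit, 1434 and 1479 bp from the kappa B matches printed above.

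Bcl3, a nuclear IkB protein that works with p50 and p52 dimers, had the least promoter signal. A summit lay within 1 kb of its start in 3 replicates, with 3.86, 4.58 and 3.65 at the 26.8 ± 5.0 percentile (n = 3), and in replicate 4 a region reached the promoter with its summit farther away. All of this belongs to one wide merged region, chr7:19822367-19824717, whose main summit lies 1620 bp upstream and reached 10.34, 8.96, 8.56 and 8.22, the 70.0 ± 4.6 percentile. The upstream summit is the one whose sequence with AP-1 and NF-kB matches is printed above. Of the window's other shared regions, the one 33138 bp upstream had the most signal, at 86.4, and promoters of Cblc and Bcam account for 2.

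By signal, the shared regions over the windows as a whole were not above the genome's. Their median signal percentile was 57.7, against 58.8 for all shared regions; it was 69.3 against 76.8 at promoters and 50.8 against 54.8 for distal regions. Regions above the 90 percentile made up 3.82% (5 of 131) against 11.9%, and regions below the 10 percentile 8.40% (11 of 131) against 3.35%. Those 5 are the Nfkbid region 48004 bp upstream, the Rel region 15544 bp upstream, the Pus10 region at 95.2, the Tnfaip3 region 24095 bp downstream and the Nfkbiz region 51696 bp downstream. The windows held many shared regions of ordinary or low signal, with a median width of 1077 bp against 888 bp for all shared regions.

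The motif count around summits searched another stretch than the start-site search, but the counts share sites. The 5 promoter regions of named genes with a match, those of Nfkb1, Nfkb2, Rel, Nfkbia and Tnfaip3, held sites printed above. In the 300 bp around the summit, 24 of the 131 shared regions held an NF-kB match (18.3%), and each of the 10 windows had at least 1. At promoters the count was 7 of 26 (26.9%) against 6.17% of all shared promoter regions, and at distal regions 17 of 105 (16.2%) against 6.02%. The promoter count joins 5 of the 11 regions at named genes and 2 of the 15 at other genes. Those at other genes were at Clptm1, the single match of the Relb window, and at Bcam in the Bcl3 window. Narrowed to 50 bp on each side of the summit, the count over all 131 was 6 regions (4.58% against 2.66%). With the 9-letter string it was 10 regions (7.63% against 1.72%), and over the whole merged region 42 (32.1% against 15.2%). The share stood above that of all shared regions in each of these readings, by different ratios. By member, the regions with a match numbered 5 for Nfkbia, 4 for Bcl3, 3 each for Nfkb1, Rel and Tnfaip3, 2 for Nfkb2 and 1 each for Rela, Relb, Nfkbiz and Nfkbid.

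AP-1 matches in the 300 bp around the summit were found at distal regions. None of the 26 promoter regions had one there (0 against 7.07% of all shared promoter regions). That share gives few matches in 26 regions, so 0 stands near it. Of the 105 distal regions 47 had one (44.8% against 38.4%). The contrast between promoter and distal regions depended on the stretch searched. Over the whole merged region, a reading added after seeing the data, 11 of the 26 promoter regions held an AP-1 match (42.3% against 28.1% of all shared promoter regions). So did 59 of the 105 distal ones (56.2% against 52.3%). The distal regions with a match around the summit numbered 14 in the Nfkb1 window, 9 in that of Rel, 7 in that of Tnfaip3 and 6 in that of Bcl3, with 0 in those of Relb and Nfkbid. Both an AP-1 and an NF-kB match were present around the summit in 6 of the 131 regions, against 1.61% of all shared regions. Other strings, searched on both strands, stood near the level of all shared regions: RUNX (TGNGGTT) in 21.4% against 22.7%, NFAT (TGGAAAA) in 7.63% against 7.86%, STAT (TTCNNNGAA) in 11.5% against 10.3%, IRF (GAAANNGAA) in 9.92% against 10.4% and ROR (TAGGTCA) in 3.05% against 3.42%. So did ETS (CCGGAAG) in 6.11% against 4.69%, KLF/SP (GGGNGGG) in 34.4% against 31.3%, CREB (TGACGTCA) in 0.763% against 1.02% and the 12-letter CTCF consensus in 3.05% against 4.04%. Strings can overlap, as KLF/SP and NF-kB matches may do in G-rich promoters, and a region was counted once for each.

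**Figure D5:**
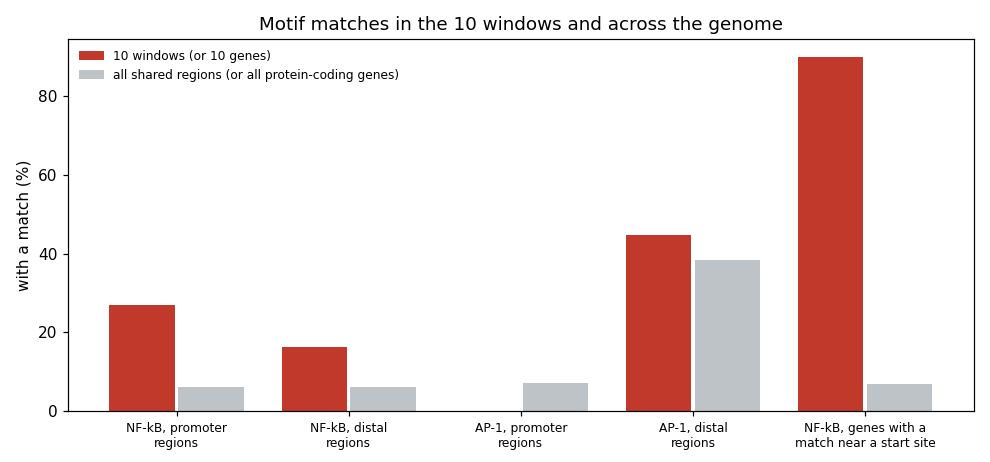
Bars give the percentage with a match (y axis, starting at 0) in the 10 windows or the 10 genes (red) and in all shared regions or all protein-coding genes (grey). NF-kB matches were at 26.9% of promoter regions in the windows, with named and other genes together. They were at 16.2% of distal regions there and at 90% of the genes near a start site. No promoter region in the windows held an AP-1 match in the 300 bp around its summit (0 against 7.07%). That stretch was used for the 4 pairs of bars on regions.

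Of the 32 other pathway genes, 8 had an NF-kB match from 250 bp before to 50 bp after a TSS, or 25% against 6.87% of all genes. They were the IkB genes Nfkbib and Nfkbie, the adaptor Bcl10, the ubiquitin ligases Traf3 and Birc3, the kinase gene Map3k7, the deubiquitinase gene Cyld, and Tnip1, whose product binds A20. Around the 32 genes the median density of shared regions stood at the 79.1 percentile, with 30 above the median of all genes and 18 above the upper quartile. By count, the most shared regions were found around Prkcq (26), N4bp1 (19) and Tnip1 (18). Prkcq encodes the kinase PKC-theta that links the antigen receptor to NF-kB. The windows differ in length, and by density Prkcq stood at the 92.2 percentile of genes, N4bp1 at 89.9 and Tnip1 at 93.8. Nfkbib (97.6) and Nfkbie (96.6) stood higher by density. The promoter of Prkcq was weak, at the 17.97 percentile of signal. The promoters of the 32 genes had a median signal percentile of 75.4, against 68.2 for the 10 members.

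The library tags in the peak names divide the replicates into pairs. Within the windows 83.9% of the regions found in either KS134 replicate were found in both, and 85.2% for KS136, against 81.7% and 82.0% over the genome. Regions found in both replicates of one tag and in neither of the other numbered 1 of 161 for KS134, inside Nfkb1, and 3 of 162 for KS136, in the Nfkb1, Nfkbid and Tnfaip3 windows. Over the genome they numbered 1866 of 91041 and 2077 of 91983. All 4 had low signal, the highest being 3.72.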

How the data were processed

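The 4 deposited peak lists, 1 per replicate, give each open region with values made by the authors. Per the deposited read-me the format is narrowPeak, and per the labels the assembly is mm10; which aligner and caller were used is not given in the sources used here. The deposited signal is enrichment at the region, with no scaling across replicates. Each region also has a deposited -log10 p and a -log10 q, of which the lowest was 1.00. The deposited display score was not used, and the deposited summit offset gave the summit. No counts were in the lists, so no intervals are given.

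Overlapping regions (1 bp or more) of the autosomes, X and Y were merged. Genes and start sites came from GENCODE M21 (protein-coding transcripts of the basic set) and sequence from GRCm38.p6. In a merged region the best row of each replicate by signal was used, and the median summit placed the 300 bp window for 11 motif strings. The named genes are the 10 members, the 3 best-ranked regions and the best promoter region of each window, neighbours with an open promoter in a window, and the 3 pathway genes with the most shared regions; other regions and the genes with a start-site match were chosen after their values were seen. The members and lists were chosen with earlier results of these data known. Scripts used Python 3.11.15, pandas 2.3.3 and pysam 0.24.0 and were tested on simulated data. Alternatives were the number of replicates, stricter thresholds, summit spread, flank, promoter width and motif window, and leaving out each replicate.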

Additional observations from a re-analysis of the deposited data

Results flagged for a closer look

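In 47 sets of 4 replicate values, 5 had one value far from the other 3 by Dixon's criterion, a rule by which chance flags about 1 in 20 sets of 4. The signal percentile of the Relb promoter was 75.9 in replicate 4 against 78.3 to 78.7 in the others. Replicate 1 held 9 regions in the Relb window against 10 in each of the others. With 3 equal counts the criterion flags any different value, so the rate of 1 in 20 does not apply to this set. The region 27256 bp upstream of Nfkbid stood at 77.7 in replicate 2 against 83.9 to 85.1. The region inside Pus10 at 70994 bp from the Rel start stood at 85.1 in replicate 1 against 89.3 to 89.5. The Tnfaip3 region 24095 bp downstream stood at 90.6 in replicate 4 against 93.7 to 93.8.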

How the results depend on the processing

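The counts of open promoters (10 members, 32 pathway genes) were 8 and 27 with the strongest 50000 regions of each replicate and did not change under the other alternatives run. The 131 shared regions became 74 among the strongest 50000 regions of each replicate, 61 with 10 kb flanks and 40 in gene bodies alone, as fewer regions or less sequence entered. Their share of merged regions, 75.3%, became 80.1% with a -log10 q of at least 10, 77.9% among the strongest 50000, 58.6% with summits within 100 bp, 74.4% with 10 kb flanks and 74.1% in gene bodies; leaving out one replicate gave 77.1% to 78.8%, where 3 replicates sufficed. The 24 regions with an NF-kB match became 6 within 50 bp of the summit, 10 with the 9-letter string and 42 over the whole merged region, the last chosen after seeing the data. The 9 members with a match near a start became 5 with the 9-letter string, also added later. Over all results, 162 alternative values stayed within their limits and 105 moved, 89 of these for single windows or promoters. No paired analysis was possible because there is 1 group. Without read counts, a region missing from a list cannot be told apart from one under the authors' threshold.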
